A study of Mus musculus with 12 samples.

Results

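Chemokines are small secreted proteins that guide leukocytes into tissue, and their receptors are membrane proteins that signal through inhibitory G proteins. Ligands are sorted by the spacing of conserved cysteines near their amino end into CC, CXC, CX3C and XC families, and receptors are named after the family they bind. In skin, keratinocytes, fibroblasts, endothelial cells and resident leukocytes all make chemokines, and inflammatory members are induced by cytokines through NF-kappaB and AP-1, the transcription factor of which Fos is a subunit.

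The members were all probes whose platform gene symbol was Ccl, Cxcl, Ccr or Cxcr followed by digits, or was Xcl1, Cx3cl1, Cx3cr1 or Ppbp. The rule found 52 of 37632 probes, for 41 of 16896 gene symbols on the array, 28 of them ligands and 13 receptors. Of the platform symbols, 2 were older names, Cxcl4 for Pf4 and Cxcl7 for Ppbp. Chemokines for which the table holds no probe under such a symbol are not analysed here. Within the family, membership followed from the symbol alone.

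Tail papillomas of 6 mice were profiled, 3 per genotype. Fos-deficient papillomas (6, 8 and 9 in the labels) came from mice with both c-Fos alleles deleted in the epidermis (c-Fos Δ/Δ), and Fos-floxed papillomas (2, 3 and 5) from c-Fos fl/fl mice whose alleles were intact. Every mouse, whichever its Fos genotype, expressed active Sos (SOS+) from the keratin 5 promoter, which switches on Ras in basal keratinocytes. Their background was a mix of 129/Ola-C57BL/6, CBA, LVA and B6C3F1, and the age is not given in the labels. The Cre line is not named there either. The deletion is labelled as epidermal, while the RNA came from whole papillomas, which also hold immune and stromal cells. Each papilloma was hybridised on 2 arrays with exchanged dyes against RNA pooled from mouse cell lines.

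Values are log2 ratios of papilloma over reference RNA, the mean of the 2 arrays of a papilloma, and each difference is the Fos-deficient minus the Fos-floxed mean with n = 3 papillomas each unless another n is given. All 66 pairs of arrays correlated positively over probes (r between 0.705 and 0.963), so the ratios of exchanged dyes had already been turned alike, and papilloma over reference is the likely direction. Krt14, a keratin of basal keratinocytes, averaged 5.47 ± 0.30 in Fos-deficient and 5.34 ± 0.12 in Fos-floxed papillomas (SD, n = 3 each) and so was present well above the reference. Of the 7 basal keratinocyte markers 3 lay above 0, with a median difference of -0.41, and 4 had an unadjusted p under 0.05 in limma, all lower, where 7.31% of all features did. Among these were Col17a1 (-1.44, SE 0.24) and Itga6 (-1.36, SE 0.41), both anchors of basal cells, and the lowest adjusted p was 0.198. With the Fos-floxed mean of each gene set to 0, these markers averaged -0.57, -0.78 and -0.30 in Fos-deficient papillomas 6, 8 and 9, against 0.027, 0.014 and -0.041 in Fos-floxed papillomas 2, 3 and 5. Its part in the chemokine values was not tested. Fos was at -4.01, -4.43 and -3.91 in Fos-deficient papillomas 6, 8 and 9, against -1.30, -0.56 and -1.56 in Fos-floxed papillomas 2, 3 and 5, and whether its probe lies in the deleted part is not known here. The log base is not stated. A ratio against the reference pool says nothing of one gene's level relative to another's. In whole papillomas, fewer cells of a type and less RNA per cell cannot be told apart.

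Of the 41 genes, 3 had no value on any array: Ccl28, an epithelial chemokine, Ccr7, the receptor that takes dendritic cells to lymph nodes, and Cxcl15, known from mouse lung. A further 10 had too few values for the test, which asked for at least 2 papillomas per group with a value on both arrays. These were Ccr1, Ccr6, Ccr9, Cxcr3, Cxcr6, Cx3cr1, Cxcl9, Cxcl13, Ppbp and Xcl1. The other 28 genes were tested, 22 ligands and 6 receptors, 20 of them with values in all papillomas. Why cells are empty is not stated in the labels.

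**Figure D1:**
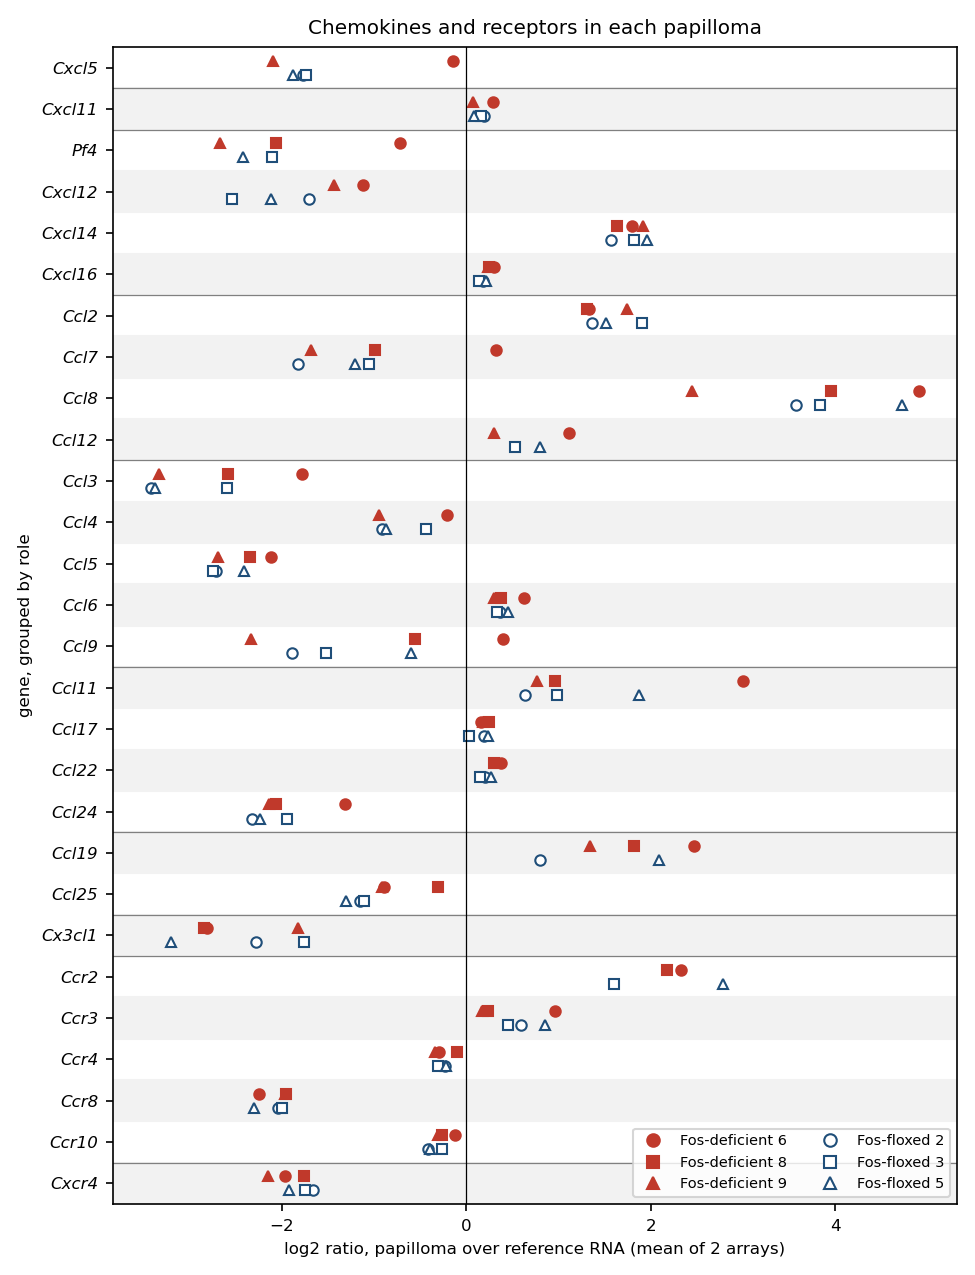
Log2 ratio of papilloma over reference RNA (horizontal axis) for the 28 tested genes, grouped by role, with filled red marks for Fos-deficient papillomas 6, 8 and 9 above open blue marks for Fos-floxed papillomas 2, 3 and 5. Papilloma 6 lies to the right of all others for Ccl7, Ccl9, Ccl11 and Ccl24, and the groups overlap for most genes.

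No chemokine or receptor gene passed the threshold. In limma, with Benjamini-Hochberg adjustment over all 18861 features tested, an adjusted p under 0.05 was reached by 0 of 28 members and 0% of all features. The lowest adjusted p of any feature was 0.183, and Fos, the deleted gene, had that value with a difference of -2.98 (SE 0.29). The threshold was thus not reached even for the deleted gene. Among members the adjusted p was lowest for Cxcl12, at 0.369. Without adjustment, p was under 0.05 for 2 members, Cxcl12 and Ccl25, which is 7.14% of them, against 11.9% of all features. Both lay higher in Fos-deficient papillomas, where the share of all features was 4.55%, and 0 members lay lower, where it was 7.31%. Over both directions together the members' share lay below that of all features. The differences of 22 of 28 members lay above 0, against 55.1% of all features, and their median was 0.11, against 0.025 over all features. Of the 20 members with complete values, 3 had groups that did not overlap, each higher in Fos-deficient papillomas. Over 16209 complete features the groups did not overlap for 20%, with 10.9% higher and 9.09% lower.

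**Figure D2:**
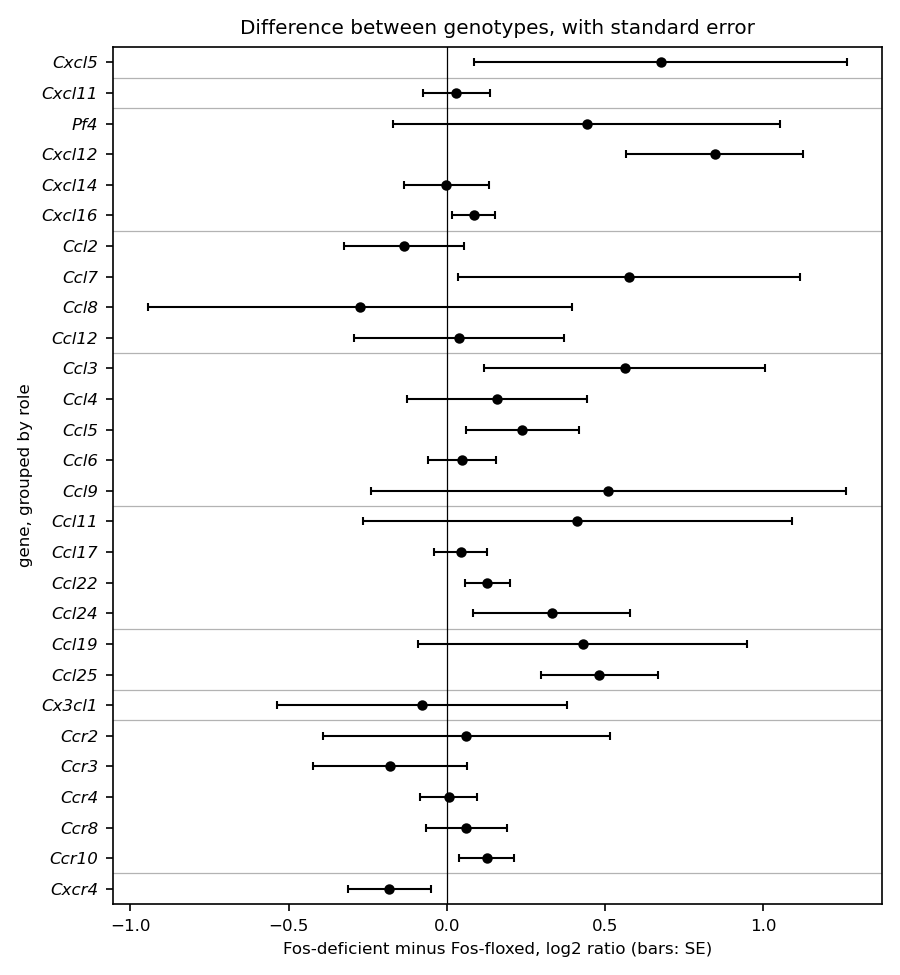
Difference between genotypes (Fos-deficient minus Fos-floxed, log2 ratio, horizontal axis) for the 28 tested genes grouped by role, with bars for 1 standard error of the limma fit. Cxcl12 and Ccl25 are the genes with an unadjusted p under 0.05, and the differences lie between -0.27 and 0.85.

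Cxcl12, which keeps stem cells and leukocytes in place through Cxcr4 and is made by fibroblasts and endothelial cells, had the lowest unadjusted p among the members. It was at -1.12 and -1.44 in Fos-deficient papillomas 6 and 9, against -1.71, -2.54 and -2.12 in Fos-floxed papillomas 2, 3 and 5. Both Fos-deficient values lay above all Fos-floxed values, and papilloma 8 dropped out because only its Cy5 array held a value, at -0.92. The difference was 0.85 (SE 0.28, n = 2 and 3), with an unadjusted p of 0.0322 and an adjusted p of 0.369 in limma. With the papilloma in Cy5 alone the difference was 0.71, in Cy3 alone it was 1.23 (n = 2 and 3), and without Fos-floxed papilloma 3 it was 0.64. In Cy5 alone, Fos-deficient papillomas 6, 8 and 9 were at -1.42, -0.92 and -1.85. Fos-floxed papillomas 2, 3 and 5 were then at -1.25, -2.71 and -2.35, so the groups overlapped in Cy5, but not in Cy3. The unadjusted p in limma was above 0.05 in Cy5 alone (0.166), after quantile normalization (0.0544) and without Fos-floxed papilloma 3 (0.0518) or 5 (0.0768). It was under 0.05 in Cy3 alone (0.00108), without Fos-floxed papilloma 2 (0.0116) and with all 12 arrays and the specimen as a random block (0.0373). With values from 1 or 2 arrays, which brought in papilloma 8 from its Cy5 array, the difference was 0.97 and that p was 0.00881. Of 7 tested fibroblast genes 6 lay above 0, with a median difference of 0.60. Fbln1, a fibulin of the matrix, differed by -1.29 (SE 0.57), and decorin (Dcn), a matrix proteoglycan without a value in papilloma 9, by 1.82 (SE 0.51). The 8 endothelial genes averaged, relative to the Fos-floxed mean, 0.059, -0.68 and -0.15 in Fos-deficient papillomas 6, 8 and 9, against -0.25, 0.037 and 0.22 in Fos-floxed papillomas. The part of fibroblasts and endothelial cells in the Cxcl12 values was not tested.

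Ccl25, which draws T cells that carry Ccr9 and is best known from thymus and gut, was at -0.89, -0.31 and -0.91 in Fos-deficient papillomas 6, 8 and 9, against -1.15, -1.11 and -1.30 in Fos-floxed papillomas 2, 3 and 5. The groups did not overlap, and papilloma 8 stood apart from the rest. The difference was 0.48 (SE 0.19), with an unadjusted p of 0.0430 and an adjusted p of 0.406 in limma, and the exact permutation p, two-sided, was 0.1, the smallest that 3 against 3 allow. Without papilloma 8 the difference was 0.28, and without Fos-floxed papilloma 2, 3 or 5 the unadjusted p in limma was above 0.05 (between 0.0755 and 0.118). The difference was 0.50 with the papilloma in Cy5 alone and 0.46 in Cy3 alone, with an unadjusted p in limma of 0.0516 and 0.0573. With trend and robust moderation that p was 0.0515. It was under 0.05 after quantile normalization (0.0240) and without Fos-deficient papilloma 6, 8 or 9 (between 0.0342 and 0.0428).

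The other members without overlap were Ccl22 and Cxcl16, and both differed by little. Ccl22, a ligand of Ccr4 made by dendritic cells and macrophages, was at 0.38, 0.31 and 0.31 in Fos-deficient papillomas 6, 8 and 9, against 0.21, 0.14 and 0.26 in Fos-floxed papillomas 2, 3 and 5. Its ratio was higher by 0.72 ± 0.12 (SD, n = 6 papillomas) with the papilloma in Cy5, a shift that the mean of both arrays balances, and its difference was 0.21 in Cy5 alone and 0.049 in Cy3 alone. Cxcl16, a membrane-bound ligand of Cxcr6 that also takes up oxidised lipoprotein, was at 0.31, 0.25 and 0.24 in Fos-deficient papillomas 6, 8 and 9, against 0.18, 0.14 and 0.21 in Fos-floxed papillomas. The differences were 0.13 (SE 0.07) for Ccl22 and 0.085 (SE 0.067) for Cxcl16. The 2 Cxcl16 probes gave 0.076 and 0.094, and the groups overlapped for the first but not for the second. Their ratios were higher by 0.48 and 0.44 on average with the papilloma in Cy5.

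Among the ligands of Cxcr2, which attract neutrophils and carry a Glu-Leu-Arg motif, Cxcl5 alone was tested. It was at -0.15 and -2.09 in Fos-deficient papillomas 6 and 9, against -1.78, -1.73 and -1.88 in Fos-floxed papillomas 2, 3 and 5. Papilloma 6 lay above all others and papilloma 9 below all others. The difference of 0.68 had an SE of 0.59 and an adjusted p of 0.682 in limma. A probe listed under an older symbol belongs to Cxcl3, a ligand of the same receptor, and its difference was -0.60 (SE 0.84, n = 2 and 3). Cxcr2 itself, also listed under an older symbol outside the rule, differed by -0.64 (SE 0.37, adjusted p of 0.562 in limma), with overlapping groups.

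Cxcl11, one of the interferon-induced ligands of Cxcr3, differed by 0.030 (SE 0.106). Cxcl9, of the same group, had values on 3 of 12 arrays, all with the papilloma in Cy5, at 1.07 and 0.32 in Fos-deficient papillomas 6 and 8 and at -0.66 in Fos-floxed papilloma 3. Of the remaining CXC ligands, Cxcl14, which is abundant in normal epidermis, was at 1.79, 1.64 and 1.92 in Fos-deficient papillomas 6, 8 and 9, against 1.57, 1.82 and 1.96 in Fos-floxed papillomas 2, 3 and 5. The groups overlapped fully and the difference was -0.00071 (SE 0.13). Its 2 probes gave 0.12 and -0.12. The Cxcl14 difference was 0.32 (SE 0.22) in Cy5 alone and -0.32 (SE 0.20) in Cy3 alone, so opposite signs met in the mean. Pf4, a platelet chemokine listed as Cxcl4, was at -0.72, -2.06 and -2.67 in Fos-deficient papillomas 6, 8 and 9, against -2.10 and -2.42 in Fos-floxed papillomas 3 and 5, a difference of 0.44 (SE 0.61) that was -0.11 without papilloma 6.

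Of the monocyte-attracting CC ligands, Ccl8 had the widest spread. It was at 4.91, 3.96 and 2.45 in Fos-deficient papillomas 6, 8 and 9, against 3.58, 3.84 and 4.72 in Fos-floxed papillomas 2, 3 and 5. The Fos-deficient papillomas held both the highest and the lowest value, and the difference of -0.27 (SE 0.67) was 0.39 without papilloma 9 and 0.065 without Fos-floxed papilloma 5. Ccl7, a ligand of Ccr2 and Ccr3, was at 0.33, -0.99 and -1.69 in Fos-deficient papillomas, against -1.83, -1.05 and -1.21 in Fos-floxed papillomas, a difference of 0.58 (SE 0.54) that was 0.020 without papilloma 6. Ccl2, the main monocyte attractant and a textbook AP-1 and NF-kappaB target, was at 1.33, 1.30 and 1.74 in Fos-deficient papillomas, against 1.37, 1.90 and 1.51 in Fos-floxed papillomas. Its groups overlapped, and the difference of -0.14 (SE 0.19, adjusted p of 0.780 in limma) was 0.019 without Fos-floxed papilloma 3. Ccl12, known in mouse as a further ligand of Ccr2, differed by 0.039 (SE 0.332, n = 2 each).

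The macrophage inflammatory CC ligands, Ccl3, Ccl4, Ccl5, Ccl6 and Ccl9, had differences between 0.048 and 0.56, all above 0 and none past the threshold. Ccl3, a ligand of Ccr1, was at -1.78, -2.59 and -3.33 in Fos-deficient papillomas 6, 8 and 9, against -3.42, -2.59 and -3.38 in Fos-floxed papillomas 2, 3 and 5. Its difference of 0.56 (SE 0.44) was 0.17 without papilloma 6 and 0.94 without papilloma 9. Ccl9, a ligand of Ccr1, was at 0.40, -0.55 and -2.33 in Fos-deficient papillomas, against -1.89, -1.52 and -0.60 in Fos-floxed papillomas. The Fos-deficient papillomas again held both extremes, and the difference of 0.51 (SE 0.75) was -0.10 without papilloma 6 and 1.26 without papilloma 9. The 2 Ccl9 probes gave 0.39 and 0.64, and both placed papilloma 6 highest and papilloma 9 lowest. Ccl5, made by T cells and other leukocytes, differed by 0.24 (SE 0.18), with 0.27 and 0.21 for its 2 probes. It was 0.0070 in Cy5 alone, 0.47 in Cy3 alone, 0.11 without papilloma 6 and 0.39 without papilloma 9.

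Of the ligands of eosinophils and type 2 helper cells, Ccl11, the eosinophil attractant eotaxin, was at 3.00, 0.96 and 0.77 in Fos-deficient papillomas 6, 8 and 9, against 0.64, 0.98 and 1.87 in Fos-floxed papillomas 2, 3 and 5. Papilloma 6 lay well above the rest, and the difference of 0.41 (SE 0.68) turned to -0.30 without papilloma 6. Ccl24, another eotaxin, was at -1.31, -2.06 and -2.13 in Fos-deficient papillomas, against -2.32, -1.94 and -2.24 in Fos-floxed papillomas, a difference of 0.33 (SE 0.25) that was 0.070 without papilloma 6. Ccl17, the other ligand of Ccr4, lay between 0.035 and 0.25 in all 6 papillomas. Ccl19, a ligand of Ccr7, differed by 0.43 (SE 0.52, n = 3 and 2), but by 1.11 with the papilloma in Cy5 and by -0.013 in Cy3. Cx3cl1, the membrane-bound chemokine fractalkine, was at -2.81, -2.84 and -1.82 in Fos-deficient papillomas 6, 8 and 9, against -2.28, -1.76 and -3.20 in Fos-floxed papillomas 2, 3 and 5, with no direction common to a group.

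Among the receptors, Cxcr4, the receptor of Cxcl12, rested on 2 probes that disagreed. The first was at -1.26, -0.96 and -1.29 in Fos-deficient papillomas 6, 8 and 9, against -1.06, -1.61 and -1.68 in Fos-floxed papillomas 2, 3 and 5, a difference of 0.28 (SE 0.20). The second was at -2.67, -2.55 and -3.00 in Fos-deficient papillomas, against -2.27, -1.88 and -2.16 in Fos-floxed papillomas, with no overlap and a difference of -0.64 (SE 0.16). Tested as a single probe, it had an unadjusted p of 0.00858 and an adjusted p of 0.267 in limma. The gene value of -0.18 (SE 0.13) averages both, and was -0.44 in Cy5 alone and 0.080 in Cy3 alone. Which probe measures Cxcr4 better was not tested.

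Ccr3, the eotaxin receptor of eosinophils, differed by -0.18 (SE 0.24), Ccr2, the receptor of inflammatory monocytes, by 0.062 (SE 0.454, n = 2 each), and Ccr10, the receptor of skin-homing T cells, by 0.13 (SE 0.09). Ccr3 moved to -0.43 without papilloma 6, with an unadjusted p of 0.0349 in limma, and to -0.038 without papilloma 9, and was 0.027 in Cy5 alone and -0.38 in Cy3 alone. Ccr10 was -0.0081 in Cy5 alone and 0.26 in Cy3 alone. Ccr8, carried by skin-resident and regulatory T cells, differed by 0.062 (SE 0.129), but by -0.21 with the papilloma in Cy5 and by 0.33 in Cy3. Ccr4, of skin-homing T cells, differed by 0.0059 (SE 0.089). Ccr1, a receptor of monocytes and neutrophils, was not tested because papillomas 8 and 9 had a value on the Cy5 array only. With the papilloma in Cy5 it was at 2.28, 0.47 and 0.48 in Fos-deficient papillomas 6, 8 and 9, against 0.90, 3.29 and 2.58 in Fos-floxed papillomas 2, 3 and 5. Fos-deficient papillomas 8 and 9 lay below all Fos-floxed ones, and papilloma 6 lay among them. In the 4 papillomas with both dyes the Cy5 value minus the Cy3 value averaged -0.93 ± 0.59 (SD), so values of 1 and of 2 arrays are not alike for this gene.

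Cx3cr1, the fractalkine receptor of monocytes and macrophages, and Ppbp, a platelet ligand of Cxcr2, had no Cy3 value in any Fos-deficient papilloma. Cx3cr1 was at 0.91, 0.78 and 0.57 with Fos-deficient papillomas 6, 8 and 9 in Cy5, against 1.30, 0.94 and 1.66 in Fos-floxed papillomas 2, 3 and 5 over the arrays with a value. Ppbp was at -0.24, -0.37 and -0.32 in Fos-deficient papillomas, against 0.89, 0.25 and -0.043 in Fos-floxed papillomas. Neither gene overlapped between groups in these values, but the Fos-floxed values include Cy3. With the papilloma in Cy5 alone, Cx3cr1 was at 0.88, 0.94 and 1.44 in Fos-floxed papillomas 2, 3 and 5, and Ppbp at -0.0072 and -0.27 in Fos-floxed papillomas 3 and 5, so that both genes overlapped between groups. Over all member probes, a value was present in 76.3% of Cy5 and 65.4% of Cy3 cells in Fos-deficient papillomas, against 79.5% and 75.6% in Fos-floxed papillomas. Over all probes of the array the shares were 65.9% and 57.4% in Fos-deficient papillomas, against 65.2% and 64.9% in Fos-floxed papillomas, so fewer Cy3 values in Fos-deficient papillomas were found over the whole array too. Ccr9, the receptor of Ccl25, had values on 7 arrays, and with values from 1 or 2 arrays differed by -0.32 (SE 0.34, n = 2 and 3, adjusted p of 0.720 in limma). Xcl1, Cxcr3 and a second Ccr1 probe had values on 4 arrays, each of 2 Ccr6 probes and the Cxcr6 probe on 2, and Cxcl13 on 1, and no comparison was made for these.

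**Figure D3:**
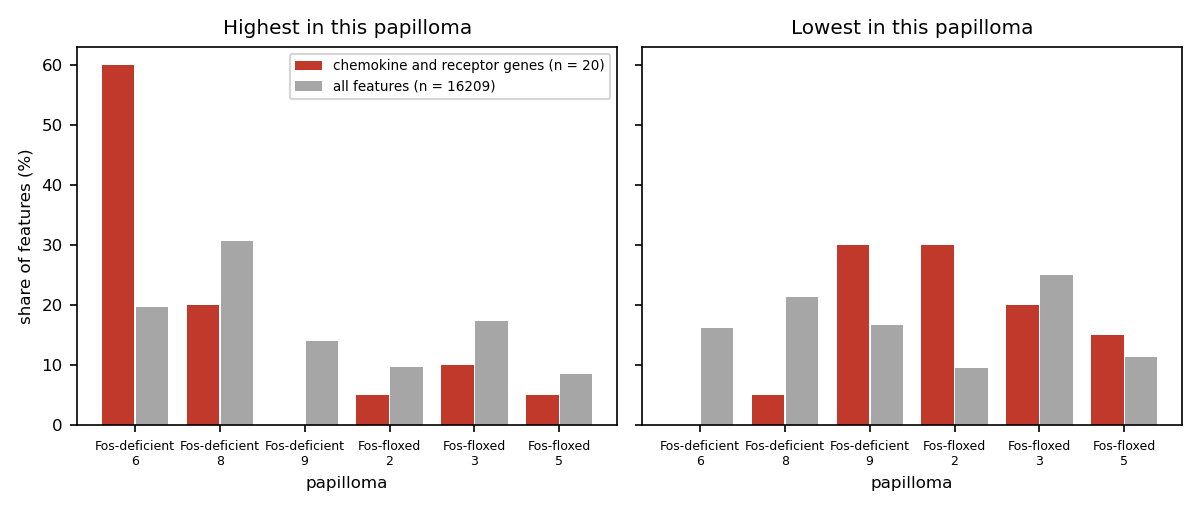
Share of features (vertical axis, percent) for which each papilloma (horizontal axis) had the highest value, left, or the lowest value, right, for the 20 chemokine and receptor genes with complete values (red) and for all 16209 complete features (grey). Fos-deficient papilloma 6 was highest for 60.0% of the chemokine and receptor genes and for 19.7% of all features.

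Fos-deficient papilloma 6 stood out among the 6 papillomas. It had the highest value for 12 of the 20 complete members and the lowest for 0. Over all features it was highest for 19.7% and lowest for 16.2%. Without it the median difference of the 22 members still tested was 0.048. The 12 genes were Ccl3, Ccl5, Ccl6, Ccl7, Ccl8, Ccl9, Ccl11, Ccl22, Ccl24, Cxcl16, Ccr3 and Ccr10. For Ccl5 and Cxcl16 this held for the mean of their probes and not for each probe. One Ccl5 probe was highest in papilloma 8 (-1.36, against -1.61 in papilloma 6). One Cxcl16 probe was highest in papilloma 9 (0.290, against 0.283 in papilloma 6). Fos-deficient papilloma 9 was highest for 0 members and lowest for 6 (30%), against 14.1% and 16.7% of all features. Fos-floxed papilloma 2 was lowest for 6 (30%), against 9.44% of all features. The median SD within a group was 0.27 in Fos-deficient and 0.19 in Fos-floxed papillomas for the 20 members, against 0.20 in Fos-deficient and 0.12 in Fos-floxed papillomas for all complete features. These are descriptions of 6 papillomas with no test.

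The genes that were highest in papilloma 6 lie partly side by side in the genome. In the RefSeq order of protein-coding genes, Ccl2, Ccl7, Ccl11, Ccl12 and Ccl8 follow each other, as do Ccl5, Ccl9, Ccl6, Ccl3 and Ccl4. Papilloma 6 had the highest measured value for 4 of the 5 genes of the first run, Ccl2 being the exception, and for all 5 of the second, where Ccl4 and, in the first, Ccl12 lacked a value in some papillomas. For Ccl5 this held for the mean of its probes and not for each probe. Probes of neighbouring paralogs can share sequence, and cross-hybridisation between them was not tested.

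Markers of leukocytes and stroma also varied between papillomas. Relative to the Fos-floxed mean, the 9 complete macrophage and monocyte genes averaged 0.51, -0.46 and -0.47 in Fos-deficient papillomas 6, 8 and 9, against -0.18, -0.0025 and 0.18 in Fos-floxed papillomas 2, 3 and 5. In this mean papilloma 6 was the highest and papillomas 8 and 9 the lowest, and 10 of 13 macrophage markers were tested, C1qa, Itgam and Ly6c2 not among them. Of these 10, 5 lay above 0, with a median difference of -0.0019. Single markers did not all follow the mean. Cd68 was at -1.79 in papilloma 6, below all Fos-floxed values (-1.38, -0.76 and -1.57). C1qc was at 3.56 in papilloma 6, against a Fos-floxed mean of 3.56. The 5 complete mast cell and eosinophil genes averaged 0.69, 0.44 and 0.24 in Fos-deficient papillomas, against -0.097, -0.39 and 0.49 in Fos-floxed papillomas, and the 6 complete fibroblast genes 0.62, 0.16 and -0.063 in Fos-deficient papillomas, against -0.27, -0.026 and 0.29 in Fos-floxed papillomas. The 5 complete dendritic and Langerhans cell genes averaged 0.48, 0.45 and 0.12 in Fos-deficient papillomas, against -0.18, -0.29 and 0.47 in Fos-floxed papillomas. Papilloma 6 had the highest mean in each of these lists and in the B and plasma cell and muscle lists, but not in the others. It was at 0.030 for T and NK cells, 0.14 for neutrophils and 0.27 for melanocytes, where papilloma 8 was at 0.23, 0.32 and 0.50. For endothelial cells it was at 0.059 and Fos-floxed papilloma 5 at 0.22. Both keratinocyte lists were also highest in another papilloma. Neutrophils and T cells were poorly covered, with 2 of 11 and 7 of 16 markers tested. None of these genes passed in limma, and their part in the chemokine values was not tested. At an unadjusted p under 0.05 in limma, where 4.55% of all features lay higher, the genes that lay higher were 1 of 7 for fibroblasts, 1 of 7 for mast cells and eosinophils, 1 of 2 for neutrophils, 1 of 7 for T and NK cells, 1 of 7 for differentiated keratinocytes and 2 of 4 for melanocytes. The macrophage, dendritic cell, endothelial, B cell and muscle lists had 0, and apart from basal keratinocytes no cell type list had a gene that lay lower at that p.

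Genes that induce or process chemokines were counted by lists. None passed in limma in either direction, and at an unadjusted p under 0.05 the counts were 1 higher of 16 for the NF-kappaB list, 1 higher and 1 lower of 16 for receptor signalling, 4 lower of 13 for proteases and heparan sulfate carriers and 0 for the other lists of this kind. Over all features 4.55% lay higher and 7.31% lower at that p. Of 16 tested genes of the NF-kappaB pathway, 11 lay above 0 with a median difference of 0.084, and the lowest p belonged to Traf1, an adaptor of tumour necrosis factor receptors that NF-kappaB induces (0.82, SE 0.32, adjusted p of 0.407 in limma). Of 16 cytokine inducers 7 lay above 0 with a median of -0.058, and Tnf was at 0.60, -0.060 and -0.24 in Fos-deficient papillomas 6, 8 and 9, against -0.60, -0.33 and -0.27 in Fos-floxed papillomas 2, 3 and 5. Tnf did not overlap between groups, and papilloma 6 again had the highest value. Of 10 interferon signalling genes 8 lay above 0 with a median of 0.19, and the lowest p belonged to Irf1, an interferon-induced transcription factor (0.61, SE 0.27, adjusted p of 0.467 in limma).

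Among 16 genes that transmit signals of chemokine receptors, 10 lay above 0 with a median of 0.23. Arrb1, a beta-arrestin that uncouples receptors from G proteins, differed by 0.35 (SE 0.09, adjusted p of 0.266 in limma), and Grk5, a kinase that marks active receptors for arrestin, by -0.58 (SE 0.19, adjusted p of 0.323 in limma). Of 13 proteases and heparan sulfate carriers 9 lay below 0 with a median of -0.63. Mmp3, a metalloproteinase that can cleave Ccl2 and related ligands, was at -0.18, -0.96 and -0.039 in Fos-deficient papillomas 6, 8 and 9, against 1.07, 1.21 and 0.90 in Fos-floxed papillomas 2, 3 and 5. All Fos-deficient values lay below all Fos-floxed ones, with a difference of -1.46 (SE 0.26) and an adjusted p of 0.210 in limma. Of 7 tested atypical and related receptors and ligands 5 lay above 0, with a median of 0.025. Ackr3, which scavenges Cxcl12, was at 0.36, -0.077 and 0.17 in Fos-deficient papillomas, against 1.43, 1.16 and 0.23 in Fos-floxed papillomas, a difference of -0.79 (SE 0.33, adjusted p of 0.437 in limma).

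**Figure D4:**
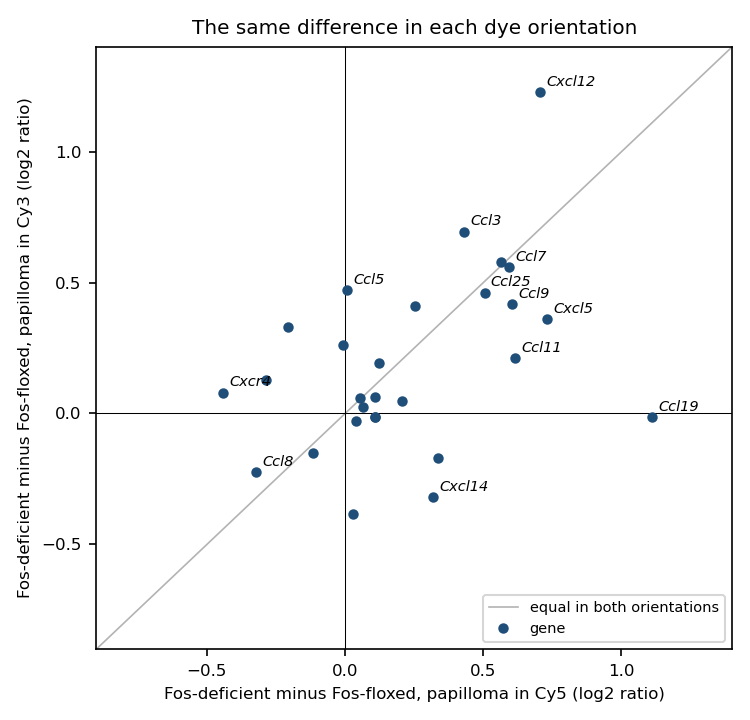
Difference between genotypes (Fos-deficient minus Fos-floxed, log2 ratio) with the papilloma in Cy5 alone (horizontal axis) and in Cy3 (vertical axis), 1 point per gene, with a line where both are equal. Ccl25 and Ccl7 lie near the line, and Ccl19 differs by 1.11 in Cy5 and by -0.013 in Cy3.

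Because Fos is part of AP-1, the promoters of the members were searched for TGANTCA on both strands. This pattern is wider than the AP-1 consensus, TGAGTCA or TGACTCA. RefSeq sequences of assembly GRCm38.p6 were at hand for 30 of the 41 genes, in 32 windows of the 250 bases before a gene's start. The letters occurred in 4 of 32 member windows (12.5%), against 6.75% of all 32851 windows. The NF-kappaB consensus occurred in 3 member windows (9.38%), against 3.90% of all, and the core of the interferon-stimulated response element in 2 (6.25%), against 2.98%. The counts are small and were not tested, and a match is no evidence of binding. The 4 windows with the AP-1 letters are shown because Fos is a subunit of AP-1, with AP-1 and NF-kappaB matches in capitals, and the window of Cxcl12, which had the lowest p, is shown beside them. In these windows no match overlapped another. They lie at chr11:83578637-83578886 on the minus strand (Ccl9), chr9:124021721-124021970 on the plus strand (Ccr3), chr9:114496545-114496794 on the minus strand (Ccr4), chr5:90768268-90768517 on the plus strand (Ppbp) and chr6:117168285-117168534 on the plus strand (Cxcl12).
Ccl9: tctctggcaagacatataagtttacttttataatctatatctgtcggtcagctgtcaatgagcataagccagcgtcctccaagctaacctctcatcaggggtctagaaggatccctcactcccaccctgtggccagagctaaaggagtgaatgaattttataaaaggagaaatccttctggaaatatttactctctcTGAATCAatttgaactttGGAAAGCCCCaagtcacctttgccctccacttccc
Ccr3: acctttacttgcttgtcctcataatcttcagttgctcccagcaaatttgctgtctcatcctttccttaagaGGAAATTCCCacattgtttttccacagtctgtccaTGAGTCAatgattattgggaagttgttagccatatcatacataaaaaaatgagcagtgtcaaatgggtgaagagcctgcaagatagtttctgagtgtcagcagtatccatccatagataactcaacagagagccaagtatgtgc
Ccr4: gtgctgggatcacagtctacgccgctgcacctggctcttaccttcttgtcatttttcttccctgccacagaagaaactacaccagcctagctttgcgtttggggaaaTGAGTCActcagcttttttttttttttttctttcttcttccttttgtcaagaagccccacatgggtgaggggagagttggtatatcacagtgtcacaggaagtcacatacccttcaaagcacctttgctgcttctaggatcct
Ppbp: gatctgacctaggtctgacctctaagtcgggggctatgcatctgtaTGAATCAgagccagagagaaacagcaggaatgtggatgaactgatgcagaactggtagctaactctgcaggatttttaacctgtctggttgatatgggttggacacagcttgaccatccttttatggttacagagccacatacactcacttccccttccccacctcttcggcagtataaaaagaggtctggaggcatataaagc
Cxcl12: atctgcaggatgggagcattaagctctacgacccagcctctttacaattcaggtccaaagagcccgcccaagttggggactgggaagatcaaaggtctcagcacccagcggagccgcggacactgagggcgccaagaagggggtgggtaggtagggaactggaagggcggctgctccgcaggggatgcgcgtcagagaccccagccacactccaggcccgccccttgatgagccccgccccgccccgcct

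In Ccl9 the AP-1 letters lie 53 to 47 bases and the NF-kappaB letters 35 to 26 bases before the start, and in Ccr3 they lie 144 to 138 and 179 to 170 bases before it. Ccr4 holds the AP-1 letters 143 to 137 and Ppbp 204 to 198 bases before the start. The match is the consensus TGAGTCA in Ccr3 and Ccr4, and TGAATCA, which only the wider pattern admits, in Ccl9 and Ppbp. The differences of the 3 tested genes with a match to the wider pattern were 0.51 (Ccl9), -0.18 (Ccr3) and 0.0059 (Ccr4), each smaller than its standard error. The Cxcl12 window and both windows of Ccl25 held none of the 3 motifs.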

How the data were processed

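Each of 6 papillomas was measured on 2 spotted arrays, once per dye, against Universal Mouse Reference RNA, after T7 amplification per the labels' protocols. The log ratios that the authors deposited were read as log2, which their range allows. How background, normalization and empty cells were handled is not given in the sources used here. A papilloma's value is the mean of its 2 arrays, both required, and counts as 1 replicate. Probes of a gene measured in all papillomas were averaged, otherwise the probe measured in most was used. Features with at least 2 papillomas per group were fitted with limma 3.58.1 (lmFit and eBayes, R 4.3.3), with Benjamini-Hochberg adjustment over 18861 features. The script was tested on simulated data. Genes were named by the rule of symbol, and their differences were described by role. The family, as a subject, and the gene lists were chosen with earlier results of these data known, and the members then followed from the symbols. The number of arrays limits the precision. Alternatives changed the centring, normalization, missing values, probes, dye, block and moderation, and left out each papilloma.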

Additional observations from a re-analysis of the deposited data

How the results depend on the processing

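No member had an adjusted p under 0.05 in limma under any of the 15 alternatives that tested it, the lowest being 0.185 for Ccl25. Over all features the count of adjusted p under 0.05 was 397 with all 12 arrays and the specimen as a random block, 1 with the papilloma in Cy3 only, and 0 in the others. The 2 members with an unadjusted p under 0.05 became 1 with trend and robust moderation, with Cy3 only, with probes on all 12 arrays and with quantile normalization. They became 3 with probes as features, 4 with values from 1 or 2 arrays, and between 0 and 2 on leaving out a papilloma. With Cy5 only the count stayed at 2, but for other genes. These were Ccl22, higher (unadjusted p of 0.0244 in limma), and Cxcr4, lower (0.0196). The 3 members without overlap became 6 with values from 1 or 2 arrays and between 3 and 9 on leaving out a papilloma, where fewer samples make non-overlap easier. The median difference stayed above 0, between 0.048 and 0.17. Cxcr4 turned to 0.080 in Cy3 only and to 0.28 for 1 of its probes, and Ccr10 to -0.0081 in Cy5 only. The cause was not tested. Of 28 genes, 11 kept their sign under each alternative that tested them, which for Ccl12 were 10 and for Ccl4, Cxcl5 and Cxcl12 were 12 of the 15. Some alternatives could not change a sign. Trend and robust moderation leaves every difference as it was, and so does leaving out a papilloma that had no value for the gene. No paired analysis was possible because the groups share no replicate numbers. Signal over background is unknown.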
